A study of Mus musculus with 24 samples.

Results

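A set of 10 genes of striated muscle were followed in cultured mouse embryonic fibroblasts: Acta1, Actc1, Myog, Myod1, Myl4, Myl7, Des, Tnnt2, Tnnc1 and Cacna1s. They were taken by gene name from the scanner files of all 24 arrays, without control spots, which gave 13 probes of 10 genes among 41174 probes. These are 10 of the 27670 gene names on the array, which include names of unannotated transcripts. The fibroblasts were grown with β-mercaptoethanol from day 13.5 embryos of crosses between C57BL6 CHIP (+/-) mice, and were either CHIP(-/-), called CHIP null here, or CHIP(+/+), called wildtype. CHIP is the ubiquitin ligase encoded by Stub1, which works with the HSP70 and HSP90 chaperones. Heated cultures were brought to 43 °C and unheated ones kept at 37 °C, with either labelled 240 or 30 min. This made 8 groups of 3 arrays: heated CHIP null, unheated CHIP null, heated wildtype and unheated wildtype at 240 min, and the same at 30 min. Each array compared a sample in Cy5 with Universal Mouse Reference RNA, a pooled reference, in Cy3, so every level below is a log2 ratio of sample over reference. The labels call the 3 arrays of a group biological replicates and do not say how many embryos they came from, and the deletion was present in all cells of the null cultures.

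Striated muscle, the contractile tissue of skeleton and heart, is built from sarcomeres in which myosin filaments pull on actin filaments. MYOD1 and myogenin (MYOG) are transcription factors that turn on the skeletal programme, and it is MYOG that drives committed myoblasts into differentiation. ACTA1 and ACTC1 are the skeletal and cardiac actins, MYL4 and MYL7 are atrial myosin light chains, TNNT2 and TNNC1 are troponin subunits that tie contraction to calcium, desmin (DES) is the intermediate filament of muscle, and CACNA1S is the pore of the skeletal calcium channel that senses voltage. In the embryo skeletal muscle also makes several of the cardiac forms, among them MYL4, TNNT2, TNNC1 and ACTC1. Fibroblasts are not a muscle cell type, and cultures from whole embryos can hold other cells.

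The labels were checked first. Stub1 lay between -2.43 and -1.72 on the 12 CHIP null arrays, against -0.24 to -0.01 on the 12 wildtype arrays. Of the 10 fibroblast marker genes listed, Pdgfra was above background on 20 of the 24 arrays and the others on all 24. Over the probes tested, arrays within a group had correlations of 0.978 to 0.994. The share of probes well above background in Cy5 was 44.1% to 48.6% on the arrays labelled 240 min and 32.9% to 41.7% on those labelled 30 min, and the median Cy5 signal was 1.13 to 1.29 times the local background. The 2 time sets lay on separate slides, so time and slide cannot be told apart. All 24 columns of the authors' deposited value table matched a scanner file of the other time label, so every time below is the label of the scanner file. These sources do not settle which labels are right, and with the labels exchanged each statement on 240 min would hold for 30 min and each direction over time would turn. At 30 min the genotypes also differed in sex-linked RNA: Xist lay at -1.50 to -1.43 in unheated CHIP null cultures and was not well above background in wildtype cultures, where Ddx3y was above background at 0.44 to 0.55 and in CHIP null cultures was not. At 240 min Xist differed by 0.03 and Ddx3y was not well above background on any array.

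Upstream sequence was matched for 9 of the 10 genes in RefSeq's table for GRCm38.p6, as windows from 250 bases before to 50 bases after the gene start. The windows were searched on both strands for the CArG box, the site of serum response factor, and for the E-box forms CAGCTG and CANNTG, which overlap each other and are bound by MYOD1 and MYOG with their partners. A CArG box stood in 3 of the 9 genes, those of both actins and Myl7, against 1.63% of 32851 windows of the table. CAGCTG stood in 4 of the 9 genes, against 16.3% of all windows, and CANNTG in 8 of the 9, against 72.3%. None of the windows held the MEF2 site pattern that was searched, which 3.19% of all windows hold, and this says only that these letters are not in them. The windows below, 5′ to 3′ on the strand of the gene, show the CArG boxes of genes that did not move together in these data and the E-boxes of Tnnt2 and Des, with both motifs in capitals. A match is a description of the letters only.
Acta1, chr8:123894726-123895025, minus strand: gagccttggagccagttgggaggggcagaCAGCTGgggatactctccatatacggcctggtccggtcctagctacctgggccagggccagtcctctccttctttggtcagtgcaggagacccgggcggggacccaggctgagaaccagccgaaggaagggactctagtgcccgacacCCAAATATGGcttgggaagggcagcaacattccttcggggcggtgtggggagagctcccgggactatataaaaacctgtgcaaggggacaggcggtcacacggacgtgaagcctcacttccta
Actc1, chr2:114052826-114053125, minus strand: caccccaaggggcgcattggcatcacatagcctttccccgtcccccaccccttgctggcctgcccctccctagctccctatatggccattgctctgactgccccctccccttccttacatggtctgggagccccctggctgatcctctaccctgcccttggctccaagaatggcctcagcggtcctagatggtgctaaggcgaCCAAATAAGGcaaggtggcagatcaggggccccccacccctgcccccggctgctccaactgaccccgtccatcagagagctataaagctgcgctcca
Myl7, chr11:5898733-5899032, minus strand: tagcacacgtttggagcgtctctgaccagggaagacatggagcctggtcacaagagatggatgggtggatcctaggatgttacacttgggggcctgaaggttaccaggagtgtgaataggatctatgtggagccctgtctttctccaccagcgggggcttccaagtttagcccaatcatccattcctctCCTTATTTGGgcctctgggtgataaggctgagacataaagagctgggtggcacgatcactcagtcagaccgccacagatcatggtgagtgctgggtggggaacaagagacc
Tnnt2, chr1:135836084-135836383, plus strand: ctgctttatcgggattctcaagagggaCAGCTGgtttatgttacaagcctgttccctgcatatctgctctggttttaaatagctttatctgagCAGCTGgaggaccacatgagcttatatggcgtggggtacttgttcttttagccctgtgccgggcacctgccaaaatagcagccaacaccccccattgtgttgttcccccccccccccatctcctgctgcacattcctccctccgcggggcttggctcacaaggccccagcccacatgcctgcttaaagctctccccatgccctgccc
Des, chr1:75360042-75360341, plus strand: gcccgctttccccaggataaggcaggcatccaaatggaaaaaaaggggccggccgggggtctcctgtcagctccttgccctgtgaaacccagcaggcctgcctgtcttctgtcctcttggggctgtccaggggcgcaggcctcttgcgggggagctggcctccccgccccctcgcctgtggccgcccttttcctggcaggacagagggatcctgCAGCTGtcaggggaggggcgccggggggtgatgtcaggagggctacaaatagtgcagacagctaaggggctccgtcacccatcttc
The CArG box began 73 bases before the start of Acta1, 47 before that of Actc1 and 61 before that of Myl7. The windows of Myl4, Myog and Tnnc1 held neither capital motif.

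Of the 13 probes, 11 were tested because some group had all 3 of its arrays well above background in the sample channel. The second probe of Tnnt2 and the second of Cacna1s were above background in Cy5 on 0 of 24 arrays and are not considered further. Of the tested probes 10 were above background on all 24 arrays. The exception was Myod1, which reached that mark on 9 arrays only, those of unheated CHIP null, heated wildtype and unheated wildtype at 240 min, so that its level elsewhere is only a bound. The probes of Myog, Myod1 and Des were each spotted 10 times on an array, and the median SD over those spots was 0.11, 0.09 and 0.10. The median SD over the 3 arrays of a group was 0.09, 0.04 and 0.10 for the same genes. Each array value is a mean of 10 spots, so this SD is not to be set against that of single spots. All tested probes lay below the reference in the median over 24 arrays, from -0.27 for Myod1 and -0.44 for Actc1 to -5.07 for Acta1, a ratio that also depends on how much of each RNA the reference holds.

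At 240 min the muscle genes were lower in CHIP null than in wildtype cultures without heat. In the fit over 19356 probes, limma with Benjamini-Hochberg adjustment called 9 of the 11 probes lower and 0 higher, where 10.6% of all probes were called, 4.14% higher and 6.45% lower. The median of the 11 probes was -0.58, against -0.01 for all probes, and the groups of 29.3% of all probes did not overlap. Among the 1644 tested probes with a mean log2 ratio under -1, which include all of the 11 but Myod1 and Actc1, 25.4% were called lower. The part of that shift in these calls was not tested. These are bulk cultures, so fewer cells of a muscle lineage and less of these RNAs per cell cannot be told apart.

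Myog, the differentiation factor, had log2 ratios of -1.79, -1.87 and -1.83 in unheated CHIP null cultures, against -1.24, -0.96 and -1.19 in unheated wildtype cultures. Every null array lay below every wildtype array, and the difference was -0.70 ± 0.08 (SE, n = 3 against 3; adjusted p = 5.51e-08), or 1.62-fold. Myod1, the factor that acts before it, differed by -0.17 ± 0.05 (adjusted p = 0.0314). Its values were -0.32, -0.38 and -0.39 in CHIP null and -0.27, -0.14 and -0.16 in wildtype cultures. Its Cy5 intensities over local background were 17.9, 14.4 and 13.3 in CHIP null and 28.9, 28.8 and 23.8 in wildtype cultures, below the offset of 50 that is added before the log, so the size of this difference depends on the offset. It was -0.36 with an offset of 10 and -0.78 with the Feature Extraction ratio. The Myod1 call held in 2 of the 6 fits that each left out an array.

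The atrial light chains were lower as well, Myl7 with the largest difference of the 11 probes. Myl7 had -3.25, -3.00 and -3.17 in unheated CHIP null cultures, against -1.72, -1.73 and -1.71 in wildtype cultures. The wildtype arrays were within 0.02 of each other and far above the null arrays, a difference of -1.42 ± 0.08, or 2.68-fold (adjusted p = 8.17e-14), and -2.24 with the Feature Extraction ratio. Myl4 was read by a pair of probes. Probe A_52_P544523 gave -2.69, -2.71 and -2.75 in CHIP null, against -1.82, -1.68 and -1.83 in wildtype cultures, a difference of -0.94 ± 0.07. Probe A_51_P413130 gave -2.73, -2.90 and -2.69 in CHIP null, against -1.94, -1.88 and -1.96 in wildtype cultures, a difference of -0.84 ± 0.08. The probes of Myl4 thus gave folds of 1.92 and 1.80, with no overlap between genotypes in either.

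Both troponins were lower as well. Tnnc1, the calcium-binding subunit of cardiac and slow muscle, had -2.00, -2.04 and -2.09 in unheated CHIP null cultures, against -1.18, -1.15 and -1.19 in wildtype cultures, a difference of -0.87 ± 0.09 (adjusted p = 7.83e-09). Tnnt2, the cardiac subunit that binds tropomyosin, had -2.71, -2.63 and -2.61, against -2.06, -2.09 and -2.05 in wildtype cultures, a difference of -0.58 ± 0.12 (adjusted p = 0.00114). Replicates of both genes lay close together and the genotypes did not overlap.

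Desmin and the calcium channel fell less. Des had -3.05, -2.86 and -3.01 in unheated CHIP null cultures, against -2.64, -2.54 and -2.59 in wildtype cultures, a difference of -0.38 ± 0.08. Cacna1s had -3.73, -3.44 and -3.39, against -3.19, -3.13 and -3.05 in wildtype cultures, a difference of -0.40 ± 0.09. Without unheated CHIP null replicate 1, the lowest array, Cacna1s differed by -0.29 (adjusted p = 0.053), and with the Feature Extraction ratio by -0.63. The actins were not called. Acta1 had -5.45, -5.15 and -5.06 in CHIP null and -5.45, -5.18 and -5.18 in wildtype cultures (difference 0.05 ± 0.11, adjusted p = 0.861), and the groups overlapped. Actc1 had -0.52, -0.28 and -0.36, against -0.996, -0.66 and -0.66 in wildtype cultures, a difference of 0.39 ± 0.21 that did not pass (adjusted p = 0.293).

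No slide held both genotypes of the same treatment, and the slides are linked only through groups that straddle them. With slide as a block, Myl4, Myl7, Tnnc1, Tnnt2 and Myog kept their calls at 240 min without heat, from -1.19 for Myl7 to -0.64 for Myog. The calls of Myod1 (-0.15, adjusted p = 0.556), Des (-0.43, adjusted p = 0.112) and Cacna1s (-0.46, adjusted p = 0.165) were lost.

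**Figure D1:**
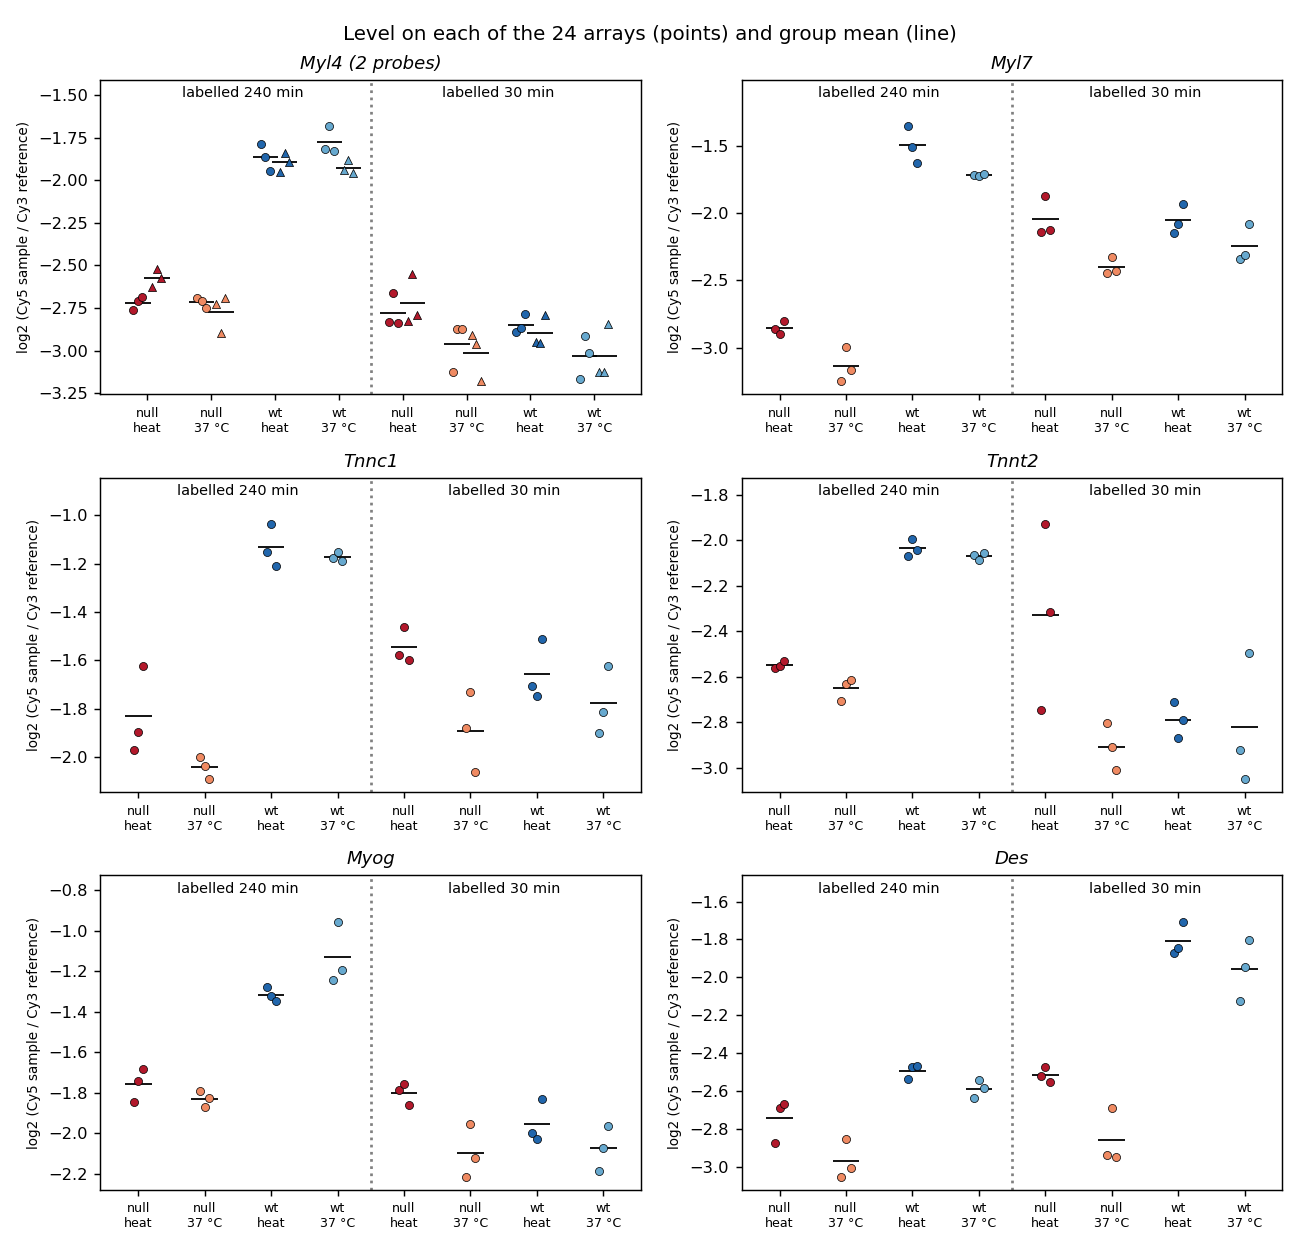
Log2 ratio of sample over reference (y axis) on each of the 24 arrays for Myl4, Myl7, Tnnc1, Tnnt2, Myog and Des, in 8 groups of 3 arrays (x axis; null is CHIP null, wt is wildtype). Points are arrays and lines are group means, and for Myl4 circles and triangles are its 2 probes. On the left, at 240 min, the wildtype groups of Myl4, Myl7, Tnnc1, Tnnt2, Myog and, by a narrow gap, Des stand above the CHIP null groups. At 30 min it is Des whose wildtype groups stand apart.

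After heat at 240 min the light chains, troponins, Myog and Des were again lower in CHIP null cultures. Of the 11 probes 7 were called lower and 1 higher, where 10.1% of all probes were called, 3.78% higher and 6.3% lower. Myl7 had -2.86, -2.90 and -2.81 in heated CHIP null cultures, against -1.35, -1.51 and -1.63 in heated wildtype cultures, a difference of -1.36 ± 0.08 (adjusted p = 2.44e-13). Myl4 differed by -0.85 ± 0.07 and -0.68 ± 0.08 by its 2 probes, Tnnc1 by -0.70 ± 0.09, Tnnt2 by -0.51 ± 0.12, Myog by -0.44 ± 0.08 and Des by -0.25 ± 0.08. The groups did not overlap for any of these, as for 25.1% of all probes. Des kept its call in 1 of the 6 fits that left out an array (-0.29 to -0.19), and with slide as a block the calls of Myog (-0.43, adjusted p = 0.146) and Des (-0.22, adjusted p = 0.568) were lost. Myod1 was not well above background in heated CHIP null cultures and had no call.

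Actc1 was the muscle gene that was higher in heated CHIP null cultures. Its values were -0.25, -0.20 and -0.17, against -0.64, -1.29 and -0.75 in heated wildtype cultures, a difference of 0.68 ± 0.21 (adjusted p = 0.0337). The wildtype arrays were far more scattered than the null arrays. The call held in 3 of the 6 fits that left out an array (0.48 to 0.81), was lost without heated wildtype replicate 2 (0.48, adjusted p = 0.244) and without heated CHIP null replicate 2 or 3, and was lost with slide as a block (0.77, adjusted p = 0.1), an offset of 10 (0.72, adjusted p = 0.102), the Feature Extraction ratio (0.76, adjusted p = 0.138), median centring (0.63, adjusted p = 0.171) and no filter on dim probes (0.68, adjusted p = 0.0597).

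At 30 min most of these differences did not pass the test. Without heat 2 of the 11 probes were called lower and 0 higher, where 29.3% of all probes were called and 15.6% were called lower. Des was lower in CHIP null cultures, with -2.94, -2.69 and -2.95 in CHIP null and -2.13, -1.94 and -1.80 in wildtype cultures, a difference of -0.90 ± 0.08, or 1.87-fold (adjusted p = 1.61e-10). Acta1 had -5.27, -5.08 and -5.04, against -4.95, -4.82 and -4.73 in wildtype cultures, a difference of -0.30 ± 0.11 (adjusted p = 0.0345). The Acta1 groups lay next to each other without overlap, as did those of 41.1% of all probes, and its call was lost without unheated wildtype replicate 2 or 3 or unheated CHIP null replicate 1, and its difference became 0.094 with median centring. Myl7 differed by -0.16 ± 0.08 (adjusted p = 0.157), Tnnc1 by -0.11 ± 0.09, Tnnt2 by -0.08 ± 0.12, Myog by -0.02 ± 0.08 and the Myl4 probes by 0.07 ± 0.07 and 0.01 ± 0.08, none of which passed. The count at 30 min depended on the processing, and for the settings that follow the share of all probes called is not given here. The Feature Extraction ratio gave 3 probes higher and 1 lower, with both Myl4 probes (0.40 and 0.28) and Myod1, below background on these arrays, called higher in CHIP null cultures and Des at -1.09. With slide as a block 1 was higher and 2 lower, with Tnnt2 at 0.70 and Actc1 at -1.07.

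After heat at 30 min 1 probe was called lower and 1 higher, where 22.9% of all probes were called. Des had -2.52, -2.47 and -2.55 in heated CHIP null cultures, against -1.87, -1.84 and -1.71 in heated wildtype cultures, a difference of -0.71 ± 0.08 (adjusted p = 2.43e-08). Tnnt2 had -2.75, -1.93 and -2.32, against -2.71, -2.87 and -2.79 in heated wildtype cultures, a difference of 0.46 ± 0.12 (adjusted p = 0.00517). With the Feature Extraction ratio 4 probes were higher and 2 lower, Myog (0.27) and a Myl4 probe (0.23) among the higher ones. The share of all probes called with that ratio is not given here. The lowest of the scattered null arrays lay inside the wildtype range of Tnnt2, and without heated CHIP null replicate 2 the difference was 0.26 (adjusted p = 0.0943). With slide as a block Tnnt2 differed by 1.16 (adjusted p = 1.27e-06) and Des kept its call. In that fit Actc1 (-1.12, adjusted p = 0.0021) and Myl4 probe A_51_P413130 (0.51, adjusted p = 0.0151) became called. Its share of all probes called is not given here. In both 30 min comparisons macrophage markers moved too, with 3 of 7 tested markers lower in heated CHIP null cultures. All 7 were lower in unheated CHIP null cultures, and their mean level was -1.44 to -1.33, against -0.28 to -0.25 in unheated wildtype cultures. Their part in the results of Des was not tested.

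**Figure D2:**
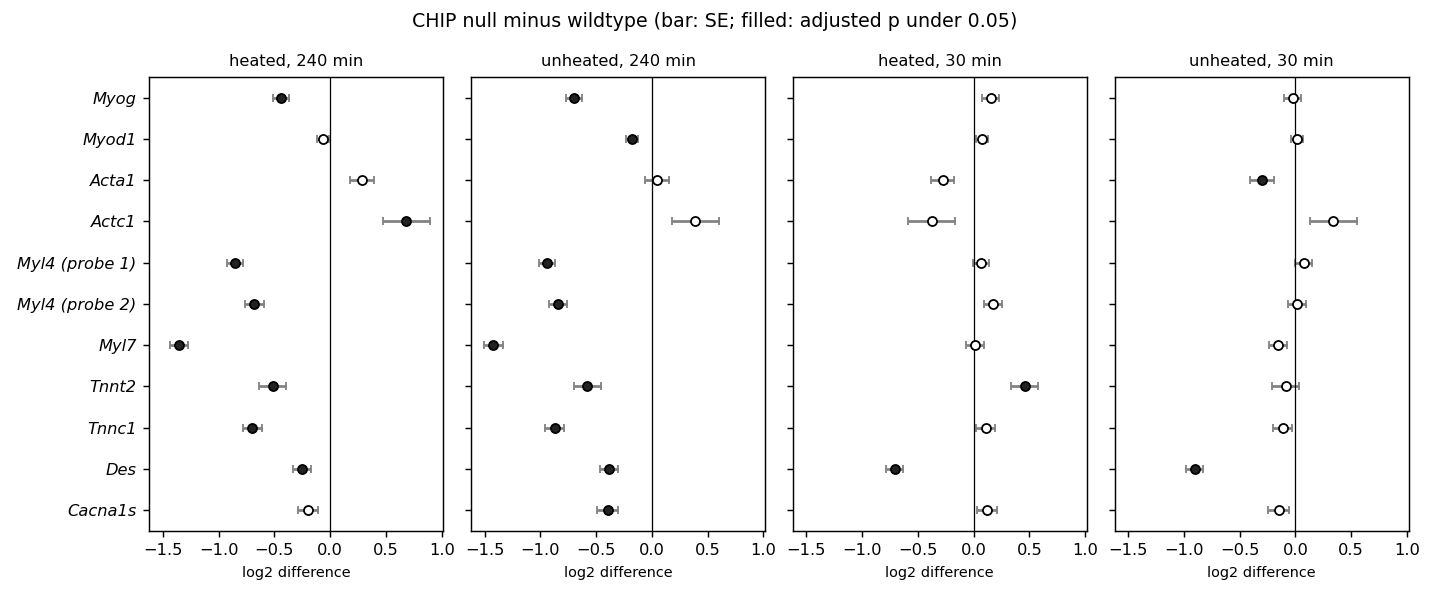
Difference in log2 ratio between CHIP null and wildtype cultures (x axis) for the 11 tested probes (y axis) in heated and unheated cultures at 240 and 30 min. Bars are the SE of the limma fit over 24 arrays, and filled points have an adjusted p under 0.05. The light chains, troponins and Myog lie left of 0 in both panels at 240 min. At 30 min they lie near 0, except Tnnt2 in heated cultures (0.46), and Des lies left of 0 in all 4 panels.

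The change of the genotype difference with time was tested directly, as a contrast chosen after the values had been seen. In unheated cultures 6 probes had a lower difference at 240 than at 30 min and 1 a higher one, where 14.5% of all probes passed, 7.1% higher and 7.39% lower. These were Myl7 (-1.26 ± 0.11, adjusted p = 1.76e-09), the probes of Myl4 (-1.01 and -0.86), Tnnc1 (-0.76), Myog (-0.67) and Tnnt2 (-0.50), and in the other direction Des (0.52). The call of Tnnt2 held in 2 of 12 fits that left out an array. In heated cultures 6 probes again had a lower difference and 3 a higher one, where 13.9% of all probes passed, 5.67% higher and 8.18% lower. They were Myl7 (-1.37), Myl4 (-0.92 and -0.86), Tnnt2 (-0.97), Tnnc1 (-0.81) and Myog (-0.59), against Actc1 (1.06), Acta1 (0.56) and Des (0.46). Since the times lie on separate slides, the contrast compares array sets as well as times. With slide as a block, Myl7, Myl4, Tnnc1 and Tnnt2 kept their calls in both treatments. Without heat the calls of Myog (-0.65, adjusted p = 0.0697) and Des (0.39, adjusted p = 0.356) were lost, and Actc1 became called (1.82, adjusted p = 0.0014). With heat the calls of Des (0.25, adjusted p = 0.602) and Acta1 (0.25, adjusted p = 0.734) were lost. Xist and Ddx3y differed between the genotypes at 30 min and not at 240 min, as given above, and their part in the contrast was not tested.

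The other genes of striated muscle were read from 8 lists of 112 genes, of which 110 were on the array and 89 could be tested, each by its brightest probe. Without heat at 240 min 26 of the 89 were lower in CHIP null cultures and 1 was higher, with a median of -0.14. Probes of similar ratio to the reference moved the same way: among the 1644 tested probes with a mean log2 ratio under -1, a class that holds 9 of the 11 muscle probes above, 25.4% were called lower and the median was -0.12. The part of that shift in the lists was not tested.

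In the thin filament list 4 of 12 genes were lower and 1 higher. Tnni1 and Tnnt1, the slow skeletal forms of troponin I and T, both fell by 0.81 and Lmod3, an actin nucleator of muscle, by 0.54, while Tpm2, a tropomyosin that smooth muscle also makes, was higher by 0.25 and is named after its value was seen. In the thick filament list 5 of 19 were lower, among them Myl1, a light chain of fast and embryonic muscle (-0.70 ± 0.08, adjusted p = 1.79e-07), Mybpc3, the cardiac myosin-binding protein (-0.62), and Mybph (-0.58). Of the Z disc and membrane list 4 of 18 were lower, led by Synpo2l (-0.87) and the actin cross-linker Actn2 (-0.52). Of the 5 tested genes of the neuromuscular junction 3 were lower: Chrna1 and Chrng, subunits of the acetylcholine receptor (-0.81 and -0.60), and its organiser Dok7 (-0.44).

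Of the cardiac list 2 of 6 were lower, Nppa, the atrial natriuretic peptide (-1.14 ± 0.07, adjusted p = 1.61e-13), and the transcription factor Gata6 (-0.51). In the list of myogenic regulators 2 of 7 were lower, Mef2c (-0.64) and the muscle cadherin Cdh15 (-0.49). Myf5, Myf6, Pax3 and Pax7, which specify muscle or keep its progenitors, were not above background on any array. In the lists for calcium handling and energy supply 3 of 13 and 3 of 9 were lower, with Sln, a regulator of the calcium pump, at -0.41, the fatty acid carrier Fabp3 at -0.45 and myoglobin, Mb, at -0.44. Among the 7 tested inhibitors of MYOD1, Id2 and Id1 were lower by log2 differences of -0.94 and -0.93 and Twist2 was higher by 0.29, with Snai1, named after its value was seen, higher by 0.34.

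Markers of other cell types differed between the same cultures. In the smooth muscle list 5 of 7 tested genes were higher in unheated CHIP null cultures at 240 min, led by Cnn1, calponin (0.69), and 0 were lower. The mean level of that list was 0.86 to 0.999 in CHIP null and 0.65 to 0.72 in wildtype cultures. Of 10 fibroblast markers 5 were higher and 2 lower, S100a4 by 0.44 and Thy1 by 0.38 on the one side and the proteoglycans Lum and Dcn (-1.18 and -1.04) on the other, and the list's range was -0.67 to -0.30 in CHIP null and -0.74 to -0.52 in wildtype cultures. Of 7 macrophage markers 3 were lower, among them Ctss (-1.24) and Lyz2 (-0.95), with a mean level of -2.03 to -1.94 in CHIP null and -1.59 to -1.48 in wildtype cultures, and Ptprc was above background on no array. Their part in the results of the muscle genes was not tested.

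**Figure D3:**
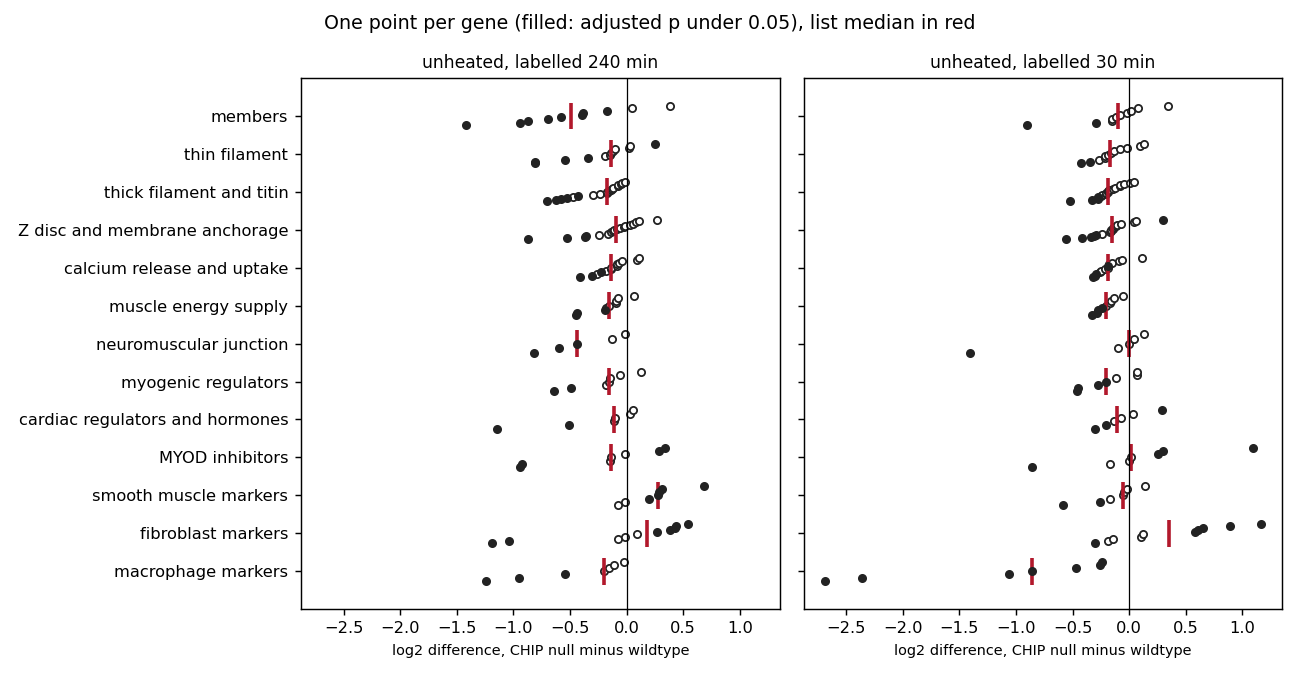
Difference in log2 ratio between unheated CHIP null and unheated wildtype cultures (x axis) at 240 and 30 min, with a point for each tested gene of a list (y axis), filled where the adjusted p was under 0.05, and the list's median in red; the top row holds the 10 genes this text follows. At 240 min the striated muscle lists have long tails to the left, down to -1.42 for Myl7 and -1.14 for Nppa, while most smooth muscle markers lie to the right of 0.

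At 30 min without heat, 26 of the 89 genes were also lower in CHIP null cultures and 2 were higher, with a median of -0.18, where 44.6% of the 1644 probes of low ratio were lower with a median of -0.20. Several genes named at 240 min did not pass there: Chrna1 differed by 0.04, Tnni1 by -0.08, Tnnt1 by -0.02 and Myl1 by 0.04. Nppa was lower by a log2 difference of -0.30, Mef2c by -0.45 and Mybpc3 by -0.52, and Dok7 had the widest gap of the 89 genes (-1.41 ± 0.08, adjusted p = 8.47e-15).

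The unheated cultures were next set against each other by time label. In wildtype cultures 7 of the 11 probes were higher at 240 than at 30 min and 2 lower, in a comparison where 61% of all probes were called, 30.3% higher and 30.7% lower. Myl4 rose by 1.25 ± 0.07 and 1.10 ± 0.08 on its 2 probes, the first with -1.82, -1.68 and -1.83 at 240 min, against -3.17, -2.92 and -3.01 at 30 min. Myog rose by 0.94 ± 0.08, with -1.24, -0.96 and -1.19 at 240 min, against -2.18, -2.07 and -1.96 at 30 min. Tnnt2 rose by 0.75 ± 0.12, Tnnc1 by 0.61 ± 0.09 and Myl7 by 0.53 ± 0.08. The times did not overlap in any of them, as for 68% of all probes. Myod1 was called higher at 240 min, where it was above background on all 3 arrays, than at 30 min, where it was on none (adjusted p = 0.043), so no size is given. This call held in 2 of 6 fits that left out an array, and was lost with median centring and with no filter on dim probes. It was kept with an offset of 10 (adjusted p = 3.82e-05) and with the Feature Extraction ratio (adjusted p = 1.41e-09). Des fell by 0.63 and Acta1 by 0.44. Acta1 was at -0.0090 with median centring. With the Feature Extraction ratio the rises were larger, 1.88 for Myl7 and 1.89 for Tnnc1. Probes of low ratio went the other way, with 83.9% of the 1644 called lower at 240 min and a median of -0.52. Markers of other cells moved as well: in wildtype cultures all 7 macrophage markers (median -0.76) and 6 of 7 smooth muscle markers (-0.83) were lower at 240 min, and 6 of 10 fibroblast markers were higher and 2 lower (0.59). The wildtype cultures at 240 min had Xist at -1.87 to -1.64 and no Ddx3y above background, while those at 30 min had Ddx3y at 0.44 to 0.55 and no Xist above background. Their part in the results was not tested.

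In CHIP null cultures the same comparison gave 3 probes higher and 2 lower, where 47.4% of all probes were called, 21.9% higher and 25.5% lower. With the Feature Extraction ratio it gave 7 higher and 0 lower, and the share of all probes called with that ratio is not given here. Myl7 fell by 0.74 ± 0.08, with -3.25, -3.00 and -3.17 at 240 min, against -2.44, -2.33 and -2.43 at 30 min, and with the Feature Extraction ratio its difference was -0.43 and lost the call (adjusted p = 0.0995). With that ratio Tnnc1 (0.74), Tnnt2 (0.51) and Cacna1s (0.45) were higher at 240 min. Myog rose by 0.27 ± 0.08 and the Myl4 probes by 0.24 ± 0.07 and 0.25 ± 0.08, while Cacna1s was lower by a log2 difference of -0.24 ± 0.09, and 0.092 with a background offset of 10. Without unheated CHIP null replicate 1 at 240 min Cacna1s differed by -0.13 (adjusted p = 0.287), and without replicate 3 at 30 min the second Myl4 probe differed by 0.16 (adjusted p = 0.125). Tnnt2 (0.26), Tnnc1 (-0.15), Des (-0.11), Actc1 (-0.24) and Acta1 (-0.09) did not pass. Of the 89 other muscle genes 6 were higher and 68 lower in CHIP null cultures, and 14 higher and 56 lower in wildtype cultures. Those that rose in wildtype included Chrna1 (1.02), Myl1 (0.96), Tnni1 (0.76), Synpo2l (0.68), Mybph (0.57), Chrng (0.55), Tnnt1 (0.54), Gata6 (0.38), Cdh15 (0.36) and Nppa (0.26).

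Put in order, the 8 group means of Myl4, Myog, Tnnt2 and Tnnc1 began with the wildtype groups at 240 min. For both Myl4 probes and for Tnnc1 the lower of these 2 groups did not overlap with the group next in order, and the groups after it overlapped from neighbour to neighbour down to the lowest. For Tnnt2 the group next in order, heated CHIP null at 30 min with its scattered arrays, overlapped with unheated wildtype at 240 min. Myl7 had 3 levels: wildtype at 240 min (means -1.50 heated and -1.72 unheated), the 4 groups at 30 min (-2.40 to -2.04), and CHIP null at 240 min (-2.86 heated and -3.14 unheated). Adjacent groups on either side of each step did not overlap, but neither did heated and unheated wildtype, or heated and unheated CHIP null, at 240 min. The lower step depended on the processing. Between unheated CHIP null cultures at 240 and 30 min it was -0.43 with the Feature Extraction ratio and was not called (adjusted p = 0.0995). The share of all probes without overlap between neighbours in such an order was not counted. Des began with the wildtype groups at 30 min (-1.81 heated and -1.96 unheated) and ended with unheated CHIP null at 240 min (-2.97). In Acta1, Actc1, Myod1 and Cacna1s every group overlapped with its neighbour in the order.

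The heat differences of the muscle genes were smaller, with calls mainly in CHIP null cultures. At 30 min 7 of the 11 probes were higher in heated than in unheated CHIP null cultures and 1 was lower, where 30.6% of all probes were called, 18.8% higher and 11.9% lower. Tnnt2 rose by 0.58 ± 0.12, Cacna1s by 0.37 ± 0.09, Myl7 by 0.36 ± 0.08, Tnnc1 by 0.35 ± 0.09, Des by 0.34 ± 0.08, Myog by 0.30 ± 0.08 and a probe of Myl4, A_51_P413130, by 0.29 ± 0.08. Heated replicates 2 and 3 lay on another slide than the unheated arrays, and with slide as a block 2 probes were higher and 0 lower, Des (0.34, adjusted p = 0.0285) and Myog (0.31, adjusted p = 0.048). The share of all probes called in that fit is not given here. Of all probes 41.4% had groups that did not overlap. Among the 1644 probes of low ratio 67.1% were called higher with a median of 0.27, and 56 of the 89 other muscle genes were higher, 4 lower, with a median of 0.30. The part of that shift in the members' changes was not tested. With median centring in place of loess the median of all probes was -0.15, 0.948% of the calls were upward, and the changes of Myog, Des and that Myl4 probe became -0.085, -0.058 and -0.10.

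At 240 min 3 of the 11 probes were higher in heated CHIP null cultures and 0 lower, where 35% of all probes were called and 20.9% were called higher. These were Myl7 (0.28 ± 0.08), Cacna1s (0.26 ± 0.09) and Des (0.23 ± 0.08), and they became -0.024, -0.066 and -0.10 with median centring, a scaling under which all probes had a median of -0.17 and 0.357% of the calls were upward. Among the probes of low ratio 44.7% were higher with a median of 0.20. The call of Des held in 2 of 6 fits that left out an array and that of Cacna1s in 3, and Myl7 lost its call without unheated CHIP null replicate 1 (0.23, adjusted p = 0.062).

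In wildtype cultures heat gave 0 calls among the 11 probes at 30 min by limma, where 11.2% of all probes were called, 5.22% higher and 5.99% lower, and 28.7% had groups that did not overlap. Myod1 was not above background in either group. The differences of the other probes were all above 0, from 0.033 for Tnnt2 to 0.19 for Myl7. This direction did not hold on the slide with both groups, which had 3 heated arrays and 1 unheated. On that slide Tnnt2 (-0.29), Myl4 probe A_51_P413130 (-0.055), Tnnc1 (-0.033), Cacna1s (-0.0096) and Des (-0.0044) lay below 0. The others lay above it, up to 0.31 for Actc1. The unadjusted p was under 0.05 for 2 probes, Myl7 (0.0255) and a Myl4 probe (0.0162), and the share of all probes at that mark was not counted. The Feature Extraction ratio gave 1 call in this comparison, and its share of all probes called is not given here. At 240 min 1 probe was called, where 28.5% of all probes were: Myl7 had -1.35, -1.51 and -1.63 in heated wildtype cultures, against -1.72, -1.73 and -1.71 in unheated ones, a rise of 0.22 ± 0.08 (adjusted p = 0.0422) that held in 1 of 6 fits that left out an array. Myog had -1.28, -1.32 and -1.35 in heated and -1.24, -0.96 and -1.19 in unheated wildtype cultures (-0.19 ± 0.08, adjusted p = 0.063).

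**Figure D4:**
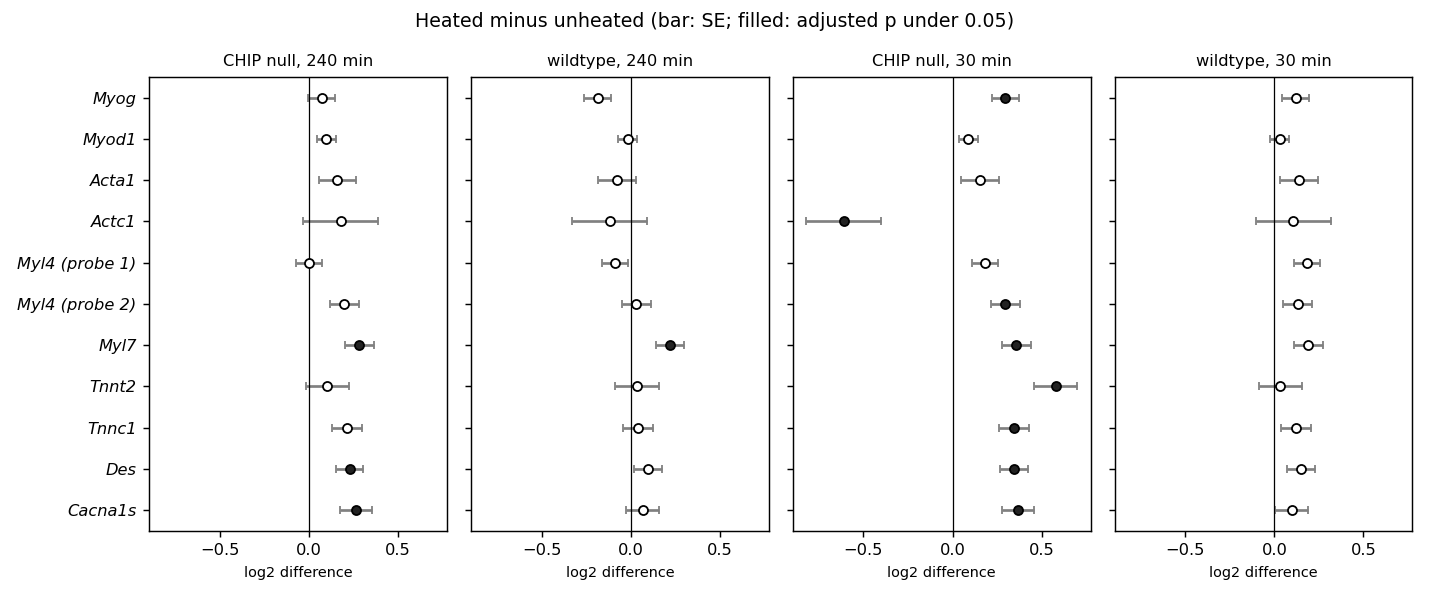
Difference in log2 ratio between heated and unheated cultures (x axis) for the 11 tested probes (y axis), in CHIP null and wildtype cultures at 240 and 30 min. Bars are the SE of the limma fit over 24 arrays, and filled points have an adjusted p under 0.05. The widest changes are the rise of Tnnt2 (0.58) and the fall of Actc1 (-0.61), both in CHIP null cultures at 30 min, and the wildtype panels hold 1 filled point, Myl7 at 240 min.

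The difference between the heat changes of the genotypes was called for 0 of the 11 probes at either time, where 0.217% of all probes were called at 30 min (0.191% higher and 0.0258% lower) and 0% at 240 min. At 30 min it ran from -0.72 ± 0.30 for Actc1 to 0.54 ± 0.17 for Tnnt2 (adjusted p = 0.375 and 0.223), and at 240 min from 0.06 for Myl7 to 0.30 for Actc1. At an unadjusted p under 0.05 there were 3 probes at 30 min (Tnnt2, Actc1 and Cacna1s) and 1 at 240 min (Myog). The share of all probes at that mark was not counted, so these counts show no excess. The heat differences in CHIP null cultures were thus not shown to differ from those in wildtype cultures.

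Actc1, the cardiac actin, and Tnnt2 were the most scattered of these genes in heated CHIP null cultures at 30 min. Actc1 had 0.12, -1.40 and -0.99 there, against -0.42, 0.02 and -0.04 in unheated CHIP null cultures, a fall of -0.61 ± 0.21 (adjusted p = 0.0278). The array at 0.12 shared a slide with the unheated cultures and the other two lay on another slide. On the shared slide heated minus unheated was 0.26, with 1 heated and 3 unheated arrays, and the fits that left out an array gave -1.05 to -0.29 with the call kept in 2 of 6, the smallest without heated replicate 2 (adjusted p = 0.307). Tnnt2 ran opposite on the same arrays, with -2.75, -1.93 and -2.32 in heated and -2.80, -2.91 and -3.01 in unheated CHIP null cultures, and on the shared slide it differed by 0.16. Over the 24 arrays, after removal of the group means, Actc1 and Tnnt2 correlated at -0.80, as a description of arrays that share groups and slides.

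**Figure D5:**
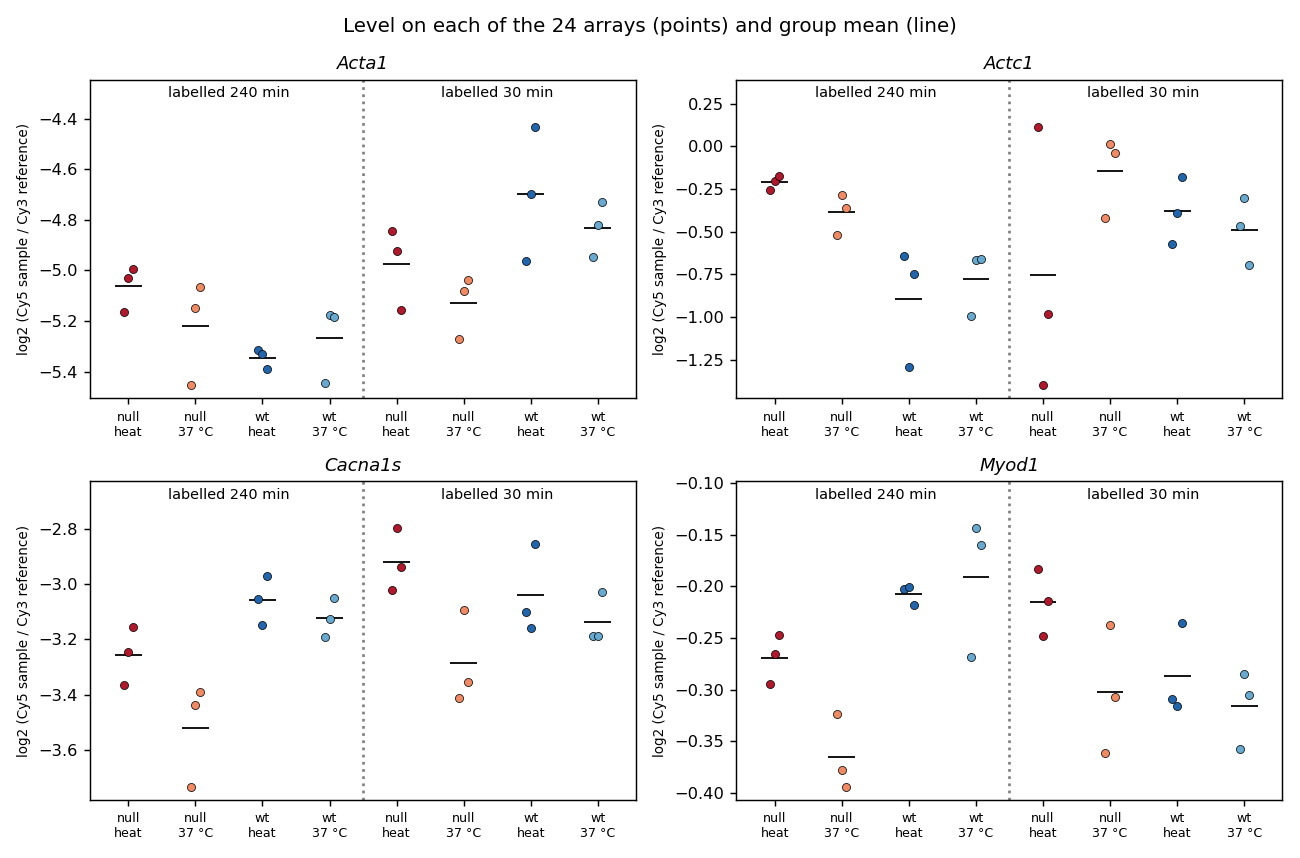
Log2 ratio of sample over reference (y axis) on each of the 24 arrays for Acta1, Actc1, Cacna1s and Myod1, in 8 groups of 3 arrays (x axis; null is CHIP null, wt is wildtype). Points are arrays and lines are group means. The groups overlap from neighbour to neighbour, the 3 arrays of Actc1 in heated CHIP null cultures at 30 min run from -1.40 to 0.12, and the whole range of Myod1 is 0.25.

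The genes most like each member over the 24 arrays were ranked by Pearson's r, as a description of arrays that share groups and slides. Myl4 and Myog were each other's nearest genes (r = 0.969), followed in both by Chrna1 (0.962 and 0.964), and Myl1 came next for Myl4 (0.961). Nearest to Myl7 was Nppa (0.978), another atrial gene, then Blnk (0.951) and S100a9 (0.933). Tnnc1 was nearest to Vat1l (0.963), Blnk (0.950) and Tnni1 (0.945), and Tnnt2 to Chrna1 (0.876), Commd1 (0.864) and Mybph (0.859). Cacna1s was nearest to Myom3 (0.896), a protein of the sarcomere's M band, and Eln (0.885).

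Des was nearest to Atp6v0e2 (0.974), Rtn1 (0.973) and Zcchc18 (0.972). Acta1 was nearest to C3, Trf and Alb (0.923, 0.911 and 0.888), which are best known as products of the liver. Actc1 had no gene closer than Coch (0.720), and the genes nearest to Myod1 were Oasl2 (0.831), Rspo1 (0.814) and Tnni1 (0.804).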

How the data were processed

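Total RNA of 24 cultures was hybridised in Cy5 against Cy3-labelled Universal Mouse Reference RNA on 24 Agilent 4x44K arrays on 6 slides, with no dye swap. Per the file headers, the deposited scanner files were made with Agilent Feature Extraction 9.1.3.1 and hold spot and local background intensities, flags, and a log10 ratio that was already background-subtracted and dye-normalized. The authors' deposited value table holds ratios that its values show to be on a log2 scale for unheated samples and centred on the unheated mean for heated ones. Its scale and centring are not given in the sources used here.

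The intensities were corrected with normexp (offset 50) and loess in limma 3.58.1 (R 4.3.3), with control spots at weight 0 and 333 outlier spots left out. Spots of a probe were averaged, giving 41174 probes from 43379 spots. A probe was above background where over 50% of its spots carried the flag. Tests used the 19356 probes that had a value in every group and were above background in the sample channel throughout some group of 3 arrays. One limma fit over 24 arrays had a mean for each of 8 groups (16 residual and 13.2 prior degrees of freedom), with moderated tests and Benjamini-Hochberg adjustment per comparison at 0.05. With 3 arrays a group, p-values measure the spread between these samples, which may be technical. The number of arrays limits the precision. The offset shrinks differences of dim probes.

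Gene names came from the files, updated by accession, symbol or synonym through RefSeq. Each list gene was read by its brightest probe, and up to 4 genes per list with the largest called heat or genotype change were named, with all members and the 3 genes most like each. The members and lists were chosen with earlier results of these data known. The pipeline was tested on simulated data. Alternatives were a normexp offset of 10, the Feature Extraction ratio, median centring, no filter on dim probes, 1 probe per gene, slide or replicate number as a block, the value table and leaving out each array.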

Additional observations from a re-analysis of the deposited data

Results flagged for a closer look

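The results below stood out because the genotype difference itself differed between the time labels, by a contrast chosen after the values had been seen (limma, Benjamini-Hochberg over 19356 probes). Each value is the difference of CHIP null minus wildtype at 240 min, less the same difference at 30 min, on the log2 scale. In unheated cultures it was -1.26 for Myl7, -1.01 and -0.86 for Myl4, -0.76 for Tnnc1, -0.67 for Myog, -0.50 for Tnnt2 and 0.52 for Des. In heated cultures it was -1.37 for Myl7, -0.97 for Tnnt2, -0.92 and -0.86 for Myl4, -0.81 for Tnnc1, -0.59 for Myog, 0.46 for Des, 0.56 for Acta1 and 1.06 for Actc1. The value of Tnnt2 without heat had an adjusted p of 0.0486 and kept its call in 2 of 12 fits that left out an array, and that of Actc1 with heat kept its call in 10 of 12. The times lie on separate slides, so these contrasts compare array sets as well as times. With slide as a block, Myl7, Myl4, Tnnc1 and Tnnt2 kept their calls in both treatments. Lost were the calls of Myog and Des without heat and of Des and Acta1 with heat, while Actc1 became called without heat (1.82). With median centring the heated calls of Acta1 (0.36, adjusted p = 0.326) and Actc1 (0.98, adjusted p = 0.204) were lost.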

How the results depend on the processing

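Of 63 called changes of single probes, 45 were called in every fit that left out an array. Counts of called probes under these fits ran from 6 to 8 for heat in CHIP null cultures at 30 min and 0 to 5 at 240 min, 0 to 1 for heat in wildtype cultures at either time, 1 to 2 and 8 to 9 for genotype without heat at 30 and 240 min, 1 to 4 and 6 to 7 with heat, 3 to 5 and 8 to 9 for time in CHIP null and wildtype cultures, 0 to 2 and 0 to 0 for genotype by heat at 30 and 240 min, and 6 to 7 and 8 to 10 for genotype by time without and with heat. Genotype without heat at 240 min gave 9 called probes with an offset of 10, the Feature Extraction ratio, median centring, no filter and the replicate block, and 6 with slide as a block. The shares of all probes called under these other settings are not given here, so the counts are not set against them. With an offset of 10, heat gave 1 call in CHIP null and 0 in wildtype cultures at 240 min. With the Feature Extraction ratio, heat gave 5 and 0 calls in CHIP null cultures at 30 and 240 min and 1 and 0 in wildtype cultures, genotype at 30 min gave 4 without heat (3 higher) and 6 with heat (4 higher), and time in CHIP null cultures gave 7, all higher. With median centring, heat in CHIP null cultures at 30 min gave 1 call and genotype at 30 min gave 1 without and 1 with heat. With no filter, heat in wildtype cultures at 240 min gave 0 calls and genotype without heat at 30 min gave 1. With slide as a block, heat in CHIP null cultures gave 2 and 1 calls at 30 and 240 min, and genotype with heat gave 4 at 30 min and 5 at 240 min. Values that turned sign were, with median centring, Acta1 for genotype without heat at 30 min (0.094), Myog (-0.085 and -0.29) and Des (-0.058 and -0.10) for heat in CHIP null cultures at 30 and 240 min, Myl4 for the same at 30 min (-0.10), and Myl7 (-0.024) and Cacna1s (-0.066) at 240 min. With slide as a block these were Actc1 for heat in CHIP null cultures at 30 min (0.26) and genotype without heat at 30 min (-1.07), and Tnnt2 for genotype without heat at 30 min (0.70). For time in CHIP null cultures they were Myod1 (0.89), Tnnc1 (0.74) and Cacna1s (0.45) with the Feature Extraction ratio and Cacna1s (0.092) with an offset of 10. In the authors' deposited value table the heat difference of Actc1 in CHIP null cultures was 0.17 in the columns it labels 30 min, which match the scanner files labelled 240 min, and -0.84 in those that match the scanner files labelled 30 min, the same sign as here. The cause of these shifts was not tested. The comparisons over time within a genotype could not be fitted with slide as a block, since no slide holds both times. The labels do not say whether the replicate numbers pair samples. Of 30 correlations of same-numbered arrays, from -0.23 to 0.55, 11 were over 0.1. The highest, 0.55 and 0.42, were those of replicates 1 and 3 between the heated genotypes at 240 min. Correlations of arrays with different numbers are not given, so pairing is not decided. With the replicate number as a block, 151 values kept their side of the threshold and 3 became called, giving 9 calls for heat in CHIP null cultures at 30 min, 9 for genotype with heat at 240 min and 3 for genotype with heat at 30 min. Faint probes near background, Myod1 above all, limit what can be measured.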
